A study of Mus musculus with 21 samples.

Results

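The chromatin opened and closed between the all-lymphoid progenitor (ALP) and the innate lymphoid cell precursor (ILCP) of mouse bone marrow was compared in 93037 merged open regions. A separate merge of all DNase-seq lists of the series gives 102313 regions. Regions were chosen by position alone: peaks of the ALP and ILCP lists on chromosomes 1 to 19 and X that shared at least 1 bp were merged into 1 region. A region with an ALP peak and no ILCP peak is called ALP-only, one with an ILCP peak and no ALP peak ILCP-only, and one with both shared. The comparison rests on 6 of the 21 samples, 3 DNase-seq libraries of ALP and 3 of ILCP, each from 300 sorted cells digested with 0.3 units of DNase I for 5 minutes.

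Both groups came from C57BL/6 mice with the genotype label Tcf7EGFP/+, in which 1 copy of Tcf7 carries a fluorescent reporter. Mouse ages were not given in the sources used here. Both were sorted as lineage-negative Kit+ 2B4+ IL-7Ra+ cells. ALP were in addition Flt3 high and negative for the integrin a4b7, whereas ILCP were positive for a4b7, for the Tcf7 reporter and for Thy1. The EILP libraries used below as an intermediate point carry the genotype label Tcf7EGFPnull/+, so for them stage and genotype cannot be told apart. The identity of the sorted cells was not checked at marker loci, since positions are on mouse build mm9 whose gene annotation was not used here. Regions are therefore named by position, and no sequence is printed.

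ALP are bone marrow progenitors that can still give rise to B, T and innate lymphoid cells. ILCP are restricted to innate lymphoid fates and lie further along, with the early innate lymphoid progenitor (EILP) between them. DNase I cuts DNA that is not protected by nucleosomes, so promoters and enhancers in use appear as sharp peaks of cuts. TCF1, the protein of Tcf7, is an HMG-box factor of early T and innate lymphoid development.

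Each stage is represented by 1 peak list that the authors called on its pooled libraries, so each value below is a single pooled value with no spread between mice. No p-value is given. Intervals are 95% intervals that cover the counting of regions or tags only. Height is the pileup, the number of extended tags over the summit of the highest peak in a region, and is given in tags or, scaled to depth, in RPM (tags over the summit per 1000000 tags after filtering). ALP had 12420429 such tags and ILCP 12681410, or 2.1% more. The lists held 66449 ALP and 71916 ILCP peaks on the chromosomes used, with a median height of 13 tags in both. How far the libraries within a stage differ was not analysed here.

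More regions were found in ILCP alone than in ALP alone. There were 27338 ILCP-only regions, 38.3% (37.9 to 38.6) of the 71450 ILCP regions. ALP-only regions numbered 21587, which is 32.9% (32.5 to 33.2) of the 65699 ALP regions. A further 44112 regions, 47.4% of all, were shared. The net count was 5751 regions in favour of ILCP, or 8.75% of the ALP regions, and there were 1.27 ILCP-only regions for each ALP-only region. The size of this net depended on how the lists were cut: it was 336 with the same number of peaks in both lists, -223 with at least 2 RPM in both (25 ALP and 26 ILCP tags) and 938 with at least 25 tags in both. In bulk samples such as these, fewer cells with an open region and less opening per cell cannot be told apart. The net count is by construction the difference between the numbers of regions in the 2 lists.

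In covered length, ILCP-only regions spanned 5.09 Mb and ALP-only regions 3.87 Mb, a net 1220 kb. The mean height was 0.888 RPM in ILCP-only regions and 0.907 in ALP-only regions, so the longer total came with a slightly lower height. ILCP-only regions had a median width of 165 bp and ALP-only regions one of 162 bp. Shared regions were wider, with a median of 260 bp, but the median length of their ALP peaks was 216 bp and that of their ILCP peaks 217 bp. Over the shared regions the ILCP peaks covered 160 kb more than the ALP peaks. The gain in length thus lay mostly in regions without any ALP peak.

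Regions on either side of the 1 bp rule were few and low. Of the ILCP-only regions, 302 lay within 50 bp of an ALP peak, with a median height of 9 tags, and 314 ALP-only regions lay as close to an ILCP peak, also with a median of 9. Among shared regions made of 1 peak of each list, 448 overlapped by 50 bp or less, with a median height of 10 tags in the higher stage. Most regions found in 1 stage were far from the other list. The median distance was 6.08 kb from an ILCP-only region to the nearest ALP peak and 4.4 kb from an ALP-only region to the nearest ILCP peak. Distances above 50 kb were found for 7.51% of ILCP-only and 4.6% of ALP-only regions.

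Regions found in 1 stage were mostly low. The median height was 10 tags in both kinds, against 16 ALP tags and 17 ILCP tags in shared regions. Among regions of 5 to 8 tags, 69.8% (69.0 to 70.5) of ILCP regions and 63.5% (62.6 to 64.4) of ALP regions had no peak in the other stage. Among regions of 23 tags or more the shares were 6.84% (6.46 to 7.25) and 6.03% (5.65 to 6.43). The ILCP share was higher in each of the 5 height classes, by 0.81 points in the tallest and by up to 8.6 points in the others. These classes are in tags not scaled to depth. The ILCP list is also the longer, and a longer list by itself gives more regions found in 1 stage. With the same number of peaks in both lists there were 23407 ILCP-only and 23071 ALP-only regions over all heights.

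**Figure D1:**
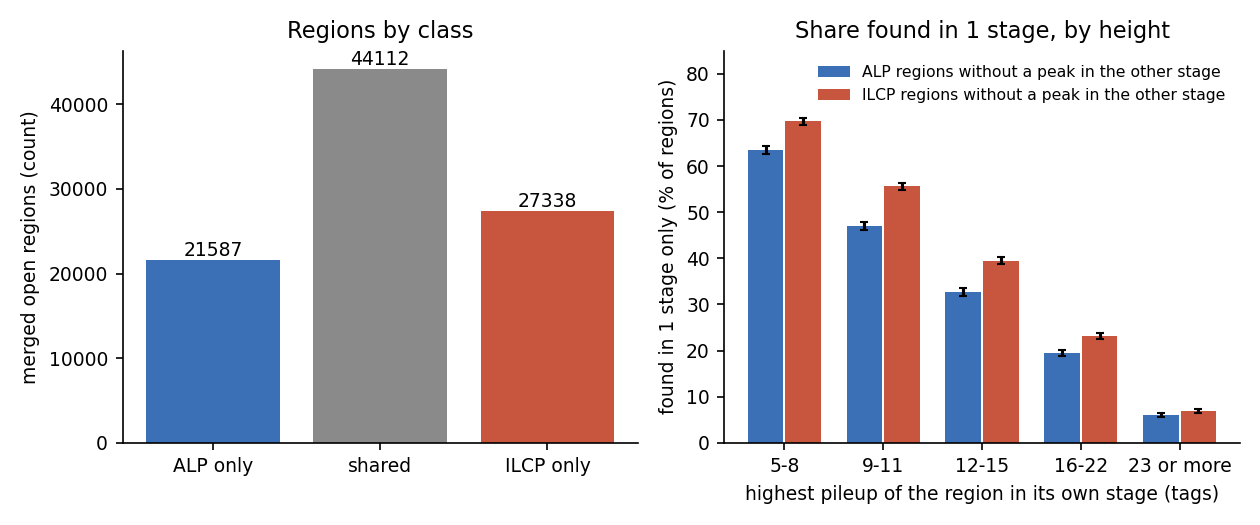
Left, number of merged regions found in ALP alone, in both stages and in ILCP alone. Right, share of the regions of each stage with no peak in the other stage (percent, bars with 95% Wilson intervals) by the height of the region in its own stage in tags; the share falls from 69.8% to 6.84% for ILCP and from 63.5% to 6.03% for ALP.

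The balance between regions found in 1 stage depended on the height asked for. At a height of at least 1 RPM there were 7891 ILCP-only and 6232 ALP-only regions, still 1.27 to 1. At 1.5 RPM the counts were 1940 and 1840. At 2 RPM, which takes 25 ALP tags or 26 ILCP tags, there were 557 ILCP-only regions (4.73%, 4.37 to 5.13) and 578 ALP-only regions (4.82%, 4.45 to 5.22). At 2.5 RPM, or 32 tags in both stages, there were 145 (1.99%, 1.7 to 2.34) and 158 (2.31%, 1.98 to 2.7). The intervals of the shares overlapped at both heights. At 3 RPM, or 38 ALP and 39 ILCP tags, 22 ILCP-only regions (0.512%, 0.339 to 0.775) stood against 48 ALP-only regions (1.15%, 0.871 to 1.53), and the intervals were apart. With the same number of tags asked of both stages there were 699 ILCP-only and 578 ALP-only regions at 25 tags, and 16 and 31 at 40 tags, where the intervals overlapped again (0.249 to 0.655 and 0.626 to 1.26). Counted as all regions past a height, ILCP had 11765 and ALP 11986 at 2 RPM, but 7275 and 6827 at 2.5 RPM and 4294 and 4160 at 3 RPM.

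Large drops were also counted together with outright absence. Of 11986 ALP regions with at least 2 RPM, 1686 were absent from ILCP or at least 2-fold lower there, 14.1% (13.5 to 14.7). Of 11765 ILCP regions of that height, 1150 were absent from ALP or at least 2-fold lower there, 9.77% (9.25 to 10.3). At 1 RPM the difference ran the other way, with 23.9% (23.5 to 24.3) of ALP and 24.9% (24.5 to 25.3) of ILCP regions. At 1.5 RPM the shares were 18.3% (17.8 to 18.9) of ALP and 15.8% (15.3 to 16.3) of ILCP regions. At 2.5 RPM the shares were 9.74% (9.06 to 10.5) and 5.37% (4.88 to 5.92). At 3 RPM it was 264 of 4160 ALP regions (6.35%, 5.64 to 7.13) against 87 of 4294 ILCP regions (2.03%, 1.65 to 2.49). On tags not scaled to depth the shares were 14.0% (13.4 to 14.7) of ALP and 11.4% (10.9 to 11.9) of ILCP regions at 25 tags, and 9.68% (9.0 to 10.4) and 5.79% (5.27 to 6.35) at 32 tags. At 15 tags they were 21.6% (21.1 to 22.1) and 22.9% (22.5 to 23.4). At 20 tags they were 17.5% (17.0 to 18.1) and 16.9% (16.3 to 17.4), with overlapping intervals. The share absent or at least 2-fold lower in the other stage was thus higher for ALP regions at each of these heights from 1.5 RPM or 25 tags up.

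The tallest ILCP-only regions had all been called in EILP, as had 86.6% of ILCP-only regions in the highest quintile of height. The tallest, chr11:3081237-3081608, had 49 tags in EILP and 76 in ILCP, the latter over a local background of 11.1 tags, so that the authors' fold enrichment was 6.37. At chr7:114802699-114803046 EILP had 30 tags and ILCP 53, with a fold enrichment of 17.0 and a TCF1 peak in EILP. The region chr11:58423579-58423888 had 25 and 50 tags and the highest fold enrichment of the 5, 22.6. At chr8:26384679-26385160 the tags were 22 and 49, with a TCF1 peak in EILP and an ALP peak only 0.439 kb away. The last, chr13:118004944-118005313, had 12 and 44 tags. Each was thus lower in EILP than in ILCP and below the calling threshold in ALP, for which no height is listed.

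The tallest ALP-only regions were described in the same way. The regions chr6:87678125-87678443 and chr8:87223782-87224195 each had 47 tags in ALP and 16 in EILP. At chr8:86731727-86732043 there were 47 tags in ALP, 30 in EILP and a TCF1 peak. The region chr2:26368813-26369278 had 45 ALP and 25 EILP tags, and chr5:3502551-3502947 had 45 and 35. All 5 were called in EILP, as were 85.8% of ALP-only regions in the highest quintile of height. Their EILP heights were below their ALP heights, and absence from ILCP is the definition of the class. The nearest ILCP peaks were 1.04 to 9.79 kb away. Both named sets were chosen as the tallest in their own stage, which by itself favours a lower height in EILP. These values describe the regions and test nothing.

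**Figure D2:**
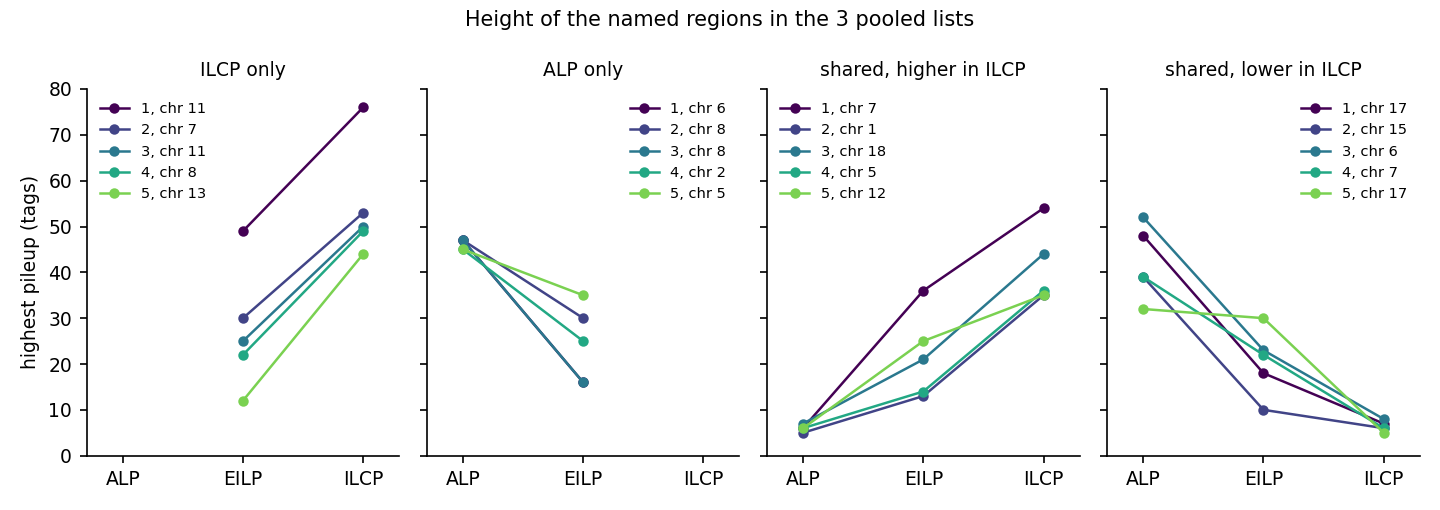
Highest pileup (tags, not scaled to depth) in the pooled ALP, EILP and ILCP lists for the 5 tallest regions found in ILCP alone, the 5 tallest found in ALP alone and the 5 shared regions with the largest height ratio in each direction; lines join the values of 1 region and a missing point means that no peak was called. EILP lies between ALP and ILCP, or where one of them has no peak below the other, in tags for each of the 20 regions. In RPM this fails for chr17:73710366-73710755, with 2.58 in ALP and 2.67 in EILP.

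Shared regions were on the whole slightly higher in ILCP. The median log2 ratio of height in RPM, ILCP over ALP, was 0.063 (0.057 to 0.07), and the middle of the distribution ran from -0.31 to 0.39 between its quartiles. The interval of the median takes regions as independent and does not cover the choice of scaling. By fold enrichment the median was 0.038, and without scaling to depth 0.093. In the lowest quintile of mean height it was -0.03, the value that equal tags in both stages give after scaling to depth. ILCP was the higher stage in 53.7% of shared regions, where regions with equal tags count as lower in ILCP. Summits lay close together, with a median offset of 20 bp and 75.8% within 50 bp.

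Large differences in shared regions leaned towards ALP. A height at least 2-fold higher in ILCP was found in 1864 of the 44112 shared regions (4.23%, 4.04 to 4.42), and one at least 2-fold lower in 2511 (5.69%, 5.48 to 5.91). Smaller differences leaned the other way. Past 1.2-fold, 14817 regions were higher and 11993 lower in ILCP, and past 1.5-fold 6667 and 6108. Past 3-fold the counts were 238 and 554, and past 4-fold 40 and 135. The share of higher regions among those past the threshold fell from 55.3% (54.7 to 55.9) at 1.2-fold to 22.9% (17.3 to 29.6) at 4-fold.

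Because heights are whole tags and ILCP had more of them, a region with exactly doubled tags in ILCP stays under the 2-fold threshold and one with exactly doubled tags in ALP passes it. There were 477 and 389 such regions. On tags not scaled to depth the counts at 2-fold were 2344 higher and 2507 lower, and at 3-fold 301 and 553. With ratios centred on their median the split at 2-fold was 1543 higher and 2926 lower. The lean towards ALP at 2-fold thus had the same direction under each of these scalings.

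The lean was strongest in tall regions. In the lowest quintile of mean height 281 regions were at least 2-fold higher and 294 at least 2-fold lower in ILCP. In the highest quintile 55 were higher and 158 lower, although 58.9% of that quintile was higher in ILCP to some extent. Among the 10237 shared regions with at least 30 tags in the higher stage, 328 were at least 2-fold higher and 659 at least 2-fold lower.

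**Figure D3:**
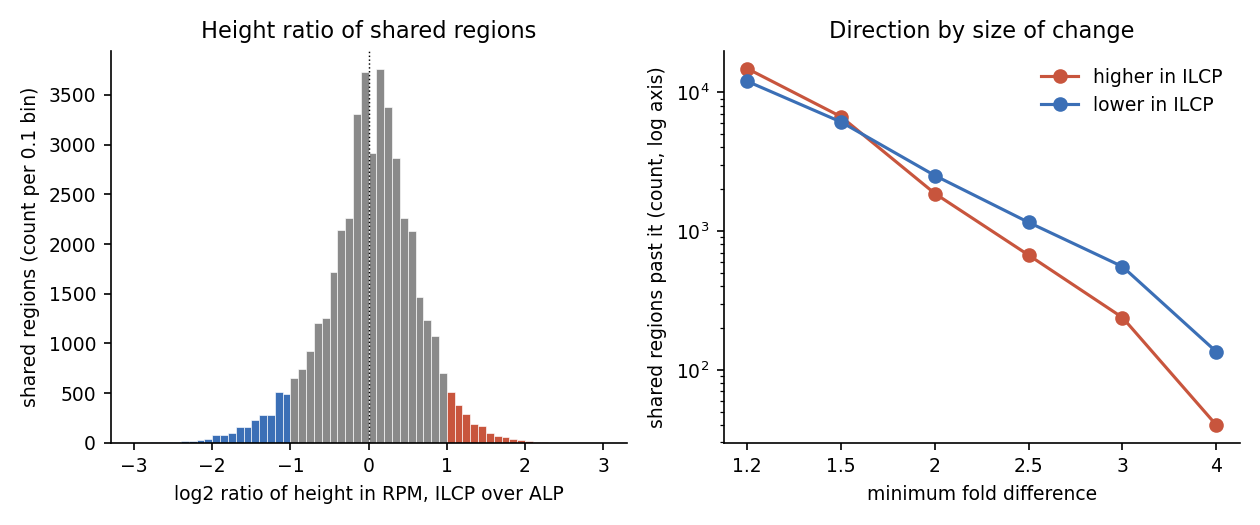
Left, number of shared regions by log2 ratio of height in RPM, ILCP over ALP, in bins of 0.1, with ratios past 2-fold in colour (red higher, blue lower in ILCP); the dip beside 0 falls where whole tag numbers give few ratios. Right, number of shared regions (log axis) past each fold threshold in each direction; the lines cross between 1.5-fold (6667 higher, 6108 lower) and 2-fold (1864 higher, 2511 lower).

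Single shared regions differed by up to 8.81-fold between ALP and ILCP. The region chr7:29478381-29479075 had 6 tags in ALP, 36 in EILP and 54 in ILCP, a log2 ratio of 3.14 (1.92 to 4.65 by the exact conditional binomial interval), and held a TCF1 peak. By the authors' fold enrichment, which divides by the local background, its log2 ratio was 1.73. The region chr1:39081985-39082361 went from 5 to 13 to 35 tags (log2 ratio 2.78, 1.42 to 4.49). At chr18:46540649-46541085 the tags were 7, 21 and 44 (2.62, 1.46 to 4.02). At chr5:73143911-73144275 they were 6, 14 and 36, and at chr12:74594976-74595432 6, 25 and 35. In each of the 5 the tags were higher at each later stage.

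In the opposite direction, chr17:47679025-47679380 had 48 tags in ALP, 18 in EILP and 7 in ILCP, a log2 ratio of -2.81 (-4.2 to -1.66). At chr6:100113100-100113629 the tags were 52, 23 and 8 (-2.73, -4.02 to -1.65). The regions chr15:36171150-36171490 and chr7:50788325-50789010 both began at 39 tags in ALP and ended at 6 in ILCP, with 10 and 22 tags in EILP. At chr17:73710366-73710755 the tags were 32, 30 and 5. Scaled to depth it had 2.58 RPM in ALP, 2.67 in EILP and 0.39 in ILCP, so that the drop lay after EILP. None of these 5 held a TCF1 peak. Such peaks lay in 5.14% of all shared regions at least 2-fold lower in ILCP and in 8.05% of those at least 2-fold higher. With shares this low, 5 regions show no contrast. All 10 regions were chosen for the size of their ratio, so these values describe them and test nothing.

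EILP stood between the other stages in many of the regions past 2-fold. Of the 1864 shared regions at least 2-fold higher in ILCP, 1726 (92.6%) were called in EILP. Their median height in RPM was 0.725 in ALP, 1.335 in EILP and 1.814 in ILCP, and EILP lay between the other values in 1328 of them (76.9%). Of the 2511 regions at least 2-fold lower, 2349 were called in EILP, with medians of 1.932 in ALP, 1.513 in EILP and 0.71 in ILCP, and EILP lay between in 1710 (72.8%). Among shared regions called in EILP that differed by less than 2-fold, EILP lay between in 32.5%. The span between ALP and ILCP is narrower there. Regions past 2-fold were chosen for a wide span, which by itself favours a value in between, so these shares test nothing. Regions without an EILP peak have no listed EILP height and are left out of these shares. The EILP list was called on 11236009 tags.

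Regions found in 1 stage were called in EILP less often than shared ones. An EILP peak overlapped 46.3% (45.6 to 46.9) of ALP-only, 35.7% (35.1 to 36.3) of ILCP-only and 90.5% (90.2 to 90.8) of shared regions. Height moved with these shares: in the lowest height quintile they were 29.7%, 19% and 50.3%, and in the highest 85.8%, 86.6% and 99.4%. ALP-only regions were thus more often open in EILP than ILCP-only regions of like height in the 4 lower quintiles, and the intervals overlapped in the highest (83.3 to 87.9 and 84.2 to 88.7). When each step was merged by itself, the net count was 3676 regions from ALP to EILP and 2073 from EILP to ILCP. Each net is by construction the difference between the numbers of regions in the lists compared, which held 66449 ALP, 70040 EILP and 71916 ILCP peaks. The steps were not counted with equal numbers of peaks in each list, so at which step more regions opened was not tested.

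TCF1 was mapped in EILP alone, with CUT&RUN, which cuts DNA next to a protein by means of a nuclease tethered to an antibody. The titles of the 6 TCF1 libraries give 4 library numbers and 4 replicate numbers, which group the last 4 libraries in different ways. How many preparations they come from is therefore not settled here. All 6 were pooled into 1 list of 6679 peaks. That list rests on 2418839 tags after filtering, with a median peak height of 5 tags and a lowest of 3. A region without a TCF1 peak is therefore not shown to be unbound. A TCF1 peak overlapped 696 of the 27338 ILCP-only regions (2.55%, 2.37 to 2.74) and 266 of the 21587 ALP-only regions (1.23%, 1.09 to 1.39). In shared regions, which were taller, the share was 7.13% (6.9 to 7.38). Weighted to the heights of regions found in 1 stage, the shares were 2.29% for shared, 2.61% for ILCP-only and 1.21% for ALP-only regions. The pooled control of this list includes a library number whose 2 libraries are titled TCF1, and how that acts on the peaks was not tested.

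TCF1 overlap was more frequent in ILCP-only than in ALP-only regions from the middle height quintile up. In the lowest height quintile 0.644% of ILCP-only and 0.593% of ALP-only regions held a TCF1 peak, with overlapping intervals (0.5 to 0.828 and 0.442 to 0.795). In the next quintile they were 1.6% (1.35 to 1.89) and 1.1% (0.839 to 1.43), whose intervals also overlapped. Shared regions had 0.904% (0.492 to 1.66) in the lowest quintile and 1.54% (1.19 to 1.99) in the next. In the middle quintile the shares were 2.97% (2.55 to 3.46) and 1.52% (1.24 to 1.86), with 2.33% (2.04 to 2.66) in shared regions. In the quintile above it they were 6.44% (5.66 to 7.31) and 2.21% (1.7 to 2.86), with 4.63% (4.29 to 5.0) in shared regions. In the highest they were 121 of 867 ILCP-only regions (14.0%, 11.8 to 16.4) and 23 of 857 ALP-only regions (2.68%, 1.79 to 3.99). Shared regions of that quintile had 13.2% (12.7 to 13.7). Median widths in it were 332 bp for ILCP-only, 301 bp for ALP-only and 345 bp for shared regions.

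The same order was found with the EILP call held fixed. Among regions of the highest quintile with an EILP peak, 15.2% (12.8 to 17.9) of 751 ILCP-only and 3.13% (2.09 to 4.65) of 735 ALP-only regions held a TCF1 peak. In this group the median EILP height was 1.33 RPM for the ILCP-only and 1.51 for the ALP-only regions. Without an EILP peak, 7 of 116 ILCP-only regions of that quintile held one (6.03%, 2.95 to 11.9) and 0 of 122 ALP-only regions did (upper bound 3.05%). In the 4 lower quintiles with an EILP peak the shares were 3.85% (3.48 to 4.27) and 1.69% (1.44 to 1.97), and without one 1.31% (1.15 to 1.48) and 0.758% (0.615 to 0.934).

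Shared regions followed the same direction over a smaller range. A TCF1 peak lay in 150 of the 1864 regions at least 2-fold higher in ILCP (8.05%, 6.9 to 9.37) and in 129 of the 2511 at least 2-fold lower (5.14%, 4.34 to 6.07). The median height in the higher stage was 22 tags for the former and 23 for the latter. Regions that differed by less than 2-fold had 7.21% (6.96 to 7.47). TCF1 was measured in EILP alone, so these shares say nothing of its binding in ALP or ILCP.

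**Figure D4:**
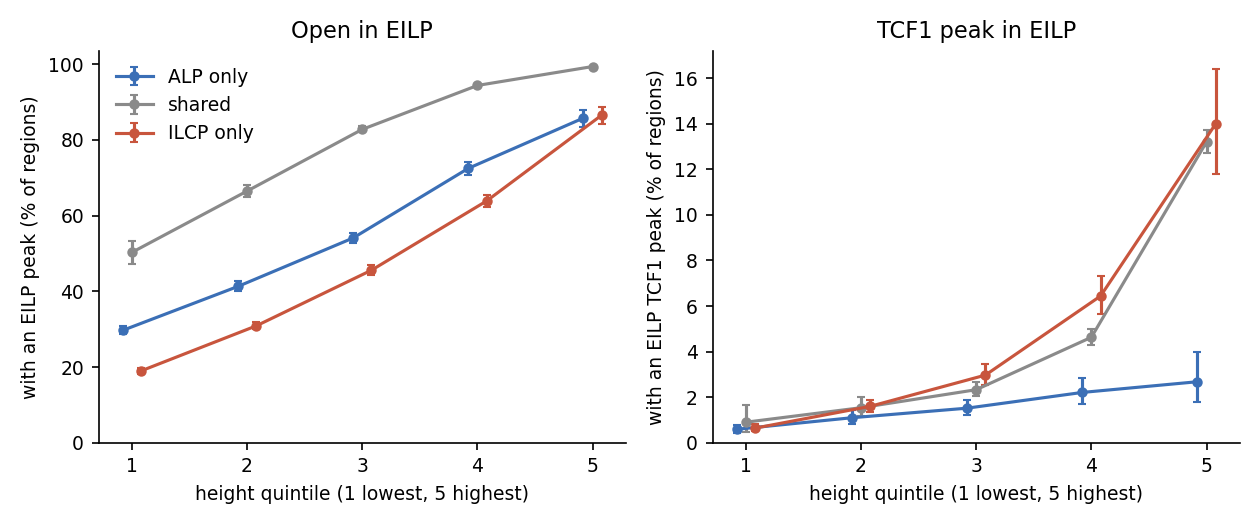
Share of regions (percent, with 95% Wilson intervals) that overlapped an EILP DNase peak (left) or an EILP TCF1 peak (right), by class and by quintile of the region's height in RPM in the higher stage. In the highest quintile the TCF1 share was 14.0% for ILCP-only, 13.2% for shared and 2.68% for ALP-only regions, while the EILP shares of ILCP-only and ALP-only regions were 86.6% and 85.8%.

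The larger number of ILCP-only regions was spread over the genome. The chromosome, window and run counts below are from the full lists, of which the ILCP list is the longer. A longer list by itself gives more regions found in 1 stage. With the same number of peaks in both lists the net over all chromosomes was only 336 regions. All 20 chromosomes had more ILCP-only than ALP-only regions, with ratios from 1.12 on chromosome 19 to 1.4 on chromosomes 14 and 18, and a median of 1.27. On chromosome 19 there were 782 ILCP-only and 701 ALP-only regions, and on chromosome 14 1171 and 835. The X chromosome, with 531 and 408, had a ratio of 1.3. The median log2 height ratio of shared regions was above 0 on each chromosome, from 0.034 on chromosome 17 to 0.096 on chromosome 14. At 2-fold, lower regions outnumbered higher ones on the 19 autosomes, and on X there were 24 higher and 23 lower.

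**Figure D5:**
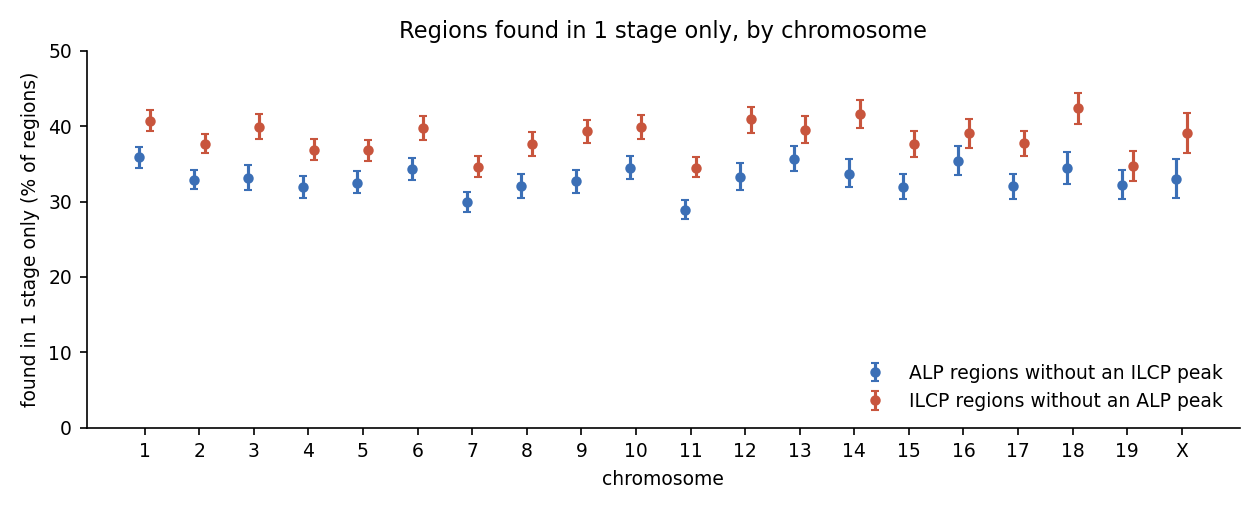
Share of ALP regions without an ILCP peak and of ILCP regions without an ALP peak (percent, points with 95% Wilson intervals) on each chromosome. The ILCP share is the higher on all 20 chromosomes, and the intervals of the shares overlap on chromosomes 16 and 19 (34.7% against 32.2% on chromosome 19).

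At a scale of 1 Mb, 1218 of 1814 windows with at least 10 regions had more ILCP-only than ALP-only regions (67.1%) and 490 had fewer (27.0%). The largest net gains were 28 regions on chromosome 2 from 9000001 to 10000000, where 34 regions were ILCP-only, 6 ALP-only and 12 shared, and 28 on chromosome 7 from 151000001 to 152000000, with 38, 10 and 26. The third was chromosome 9 from 120000001 to 121000000, with 37 ILCP-only, 10 ALP-only and 41 shared regions. The shared regions of the chromosome 2 and 9 windows were higher in ILCP too, with median log2 ratios of 0.33 and 0.31. Those of the chromosome 7 window had one of -0.03, about what equal tags in both stages give.

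The largest net losses were smaller. On chromosome 19 from 10000001 to 11000000 there were 35 ALP-only and 15 ILCP-only regions. The windows on chromosome 14 from 77000001 to 78000000 and on chromosome 13 from 37000001 to 38000000 both had 35 ALP-only and 17 ILCP-only regions. In the chromosome 13 window 12 of 43 shared regions were at least 2-fold lower in ILCP and 2 at least 2-fold higher, with a median log2 ratio of -0.42. The corresponding medians were -0.13 on chromosome 19 and -0.25 on chromosome 14. Across the 1724 windows with at least 5 shared regions, the net share of a window and the median log2 ratio of its shared regions were weakly related (Pearson r 0.15, Spearman rho 0.14), as a description of windows that share libraries and depth.

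ILCP-only regions also formed longer uninterrupted runs. With neighbours at most 50 kb apart, the longest run held 12 ILCP-only regions over 82.1 kb at chr11:98325266-98407388, with heights of 7 to 27 tags, and 2 of the 12 were called in EILP. The next were 11 regions over 54.4 kb at chr5:111637748-111692105, of which 3 were called in EILP, and 10 over 138 kb at chr10:24605930-24743909, of which 1 was. None of the 33 regions in these runs held a TCF1 peak, but only 2.55% of all ILCP-only regions did. The longest ALP-only runs held 7 regions each, at chr1:179393051-179425316, chr1:94172089-94257160 and chr12:100488980-100549782. All 7 regions of the first were still called in EILP, and 3 and 2 of the others. Over all regions, 35.7% of ILCP-only and 46.3% of ALP-only regions were called in EILP. The runs were chosen for their length, so their counts describe them only.

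Runs of at least 5 numbered 196 for ILCP-only and 60 for ALP-only regions, where the more numerous class has more runs by its count alone. Neighbours of the same kind were only a little more frequent than the counts of the classes give. Of 24032 neighbouring pairs with no shared member, 7714 were ILCP-only on both sides, 5029 ALP-only on both sides and 11289 mixed. Pairs of the same kind thus made up 53.0%, against 50.7% from the class counts.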

How the data were processed

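Peaks were called by the authors on 1 pooled tag file per stage with MACS 2.1.1.20160309, per the file headers, at a q-value cutoff of 0.05 with no control, 50 bp tags, at most 1 tag per position, fragments of 100 bp centred on the cut and a background window of 10 kb. The TCF1 list was called against a pooled IgG file, per the file headers. The build was mm9 per the submitters' processing notes. The aligner is not given in the sources used here. The deposited pileup is a signal in whole tags, the deposited fold enrichment is a ratio to the local background, and −log10 of the q-value is as deposited. Pooling removes the spread between libraries, and presence depends on the cutoff.

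Peaks on chromosomes Y and M were left out (50 of the ALP list, 57 of the ILCP list). Lists were merged at 1 bp overlap and the highest pileup of each list was taken per region and divided by the tags after filtering in units of 1000000 (RPM). Shares have 95% Wilson intervals and the median ratio an order-statistic interval, both over regions taken as independent. Named ratios have an exact Clopper-Pearson interval of tag counting error. None covers the spread between libraries. Height quintiles for EILP and TCF1 overlap were cut over all 93037 regions by the height in the higher stage, and those of shared regions by the mean of both stages. Named regions were the 5 tallest of each kind found in 1 stage and the 5 shared regions with the largest ratio in each direction among those with at least 20 tags. Named windows and runs were the 3 most extreme in each direction, ties going to windows with fewer regions and to runs with more summed height. The comparison, its members and these rules were chosen with earlier results of these data known. Python 3.11.15, pandas 2.3.3 and scipy 1.17.1 were used, and the functions were tested on simulated lists. Gene lists, promoters and sequences were not analysed here, as they need an annotation or genome of the same build.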

Additional observations from a re-analysis of the deposited data

How the results depend on the processing

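No paired analysis was possible because each stage is a single list called on its pooled libraries, and for the same reason no library was left out. The analysis of genes, promoters and sequence features and its alternative were not run. Settings with at least 2, 2.5 or 3 RPM, the same number of tags in both lists, 1 list's taller peaks against the whole other list, unscaled tags and a 3-fold threshold were chosen after seeing the data.

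The net count of 5751 regions was 3478 with −log10 q of at least 5 and 336 with the same number of peaks in both lists, where the net length was 389529 bp. With at least 1 RPM in both lists there were 14166 ILCP-only, 11371 ALP-only and 24983 shared regions (net 2795 regions, 669691 bp). With at least 2 RPM there were 3678, 3901 and 8087, and the net turned to -223 regions and -123114 bp. This height takes 25 ALP but 26 ILCP tags. With at least 25 tags in both lists there were 4538, 3600 and 8387 (net 938 regions, 220780 bp). At 2.5 RPM, which is 32 tags in both, there were 2307, 1858 and 4970 (net 449 regions, 131268 bp), and at 3 RPM 1236, 1102 and 3058 (net 134 regions, 46004 bp). The net was thus below 0 at 2 RPM and above 0 at the other heights tried in both lists. Taller peaks against the whole other list gave 7891 and 6232 (net 1659) at 1 RPM, and 557 and 578 (net -21) at 2 RPM. The 50% overlap rule, the 500 bp rule and autosomes kept the net count within 1.5 times.

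The median log2 ratio of shared regions was 0.0 after centring on all of them, as that centring must give. After centring on the 5000 highest regions it was 0.001. It was 0.038 by fold enrichment, 0.085 for regions of at least 20 tags and 0.093 without scaling. Past 2-fold by fold enrichment 907 were higher and 1196 lower, past 1.5-fold in height 6667 and 6108, and past 3-fold 238 and 554. With TCF1 or EILP summits required inside the region, EILP shares were 41.7% (ALP-only), 89.6% (shared) and 32.2% (ILCP-only), and TCF1 shares 0.959%, 6.66% and 2.11%. Weighted to the heights of regions found in 1 stage, shared regions had 69.3% for EILP and 2.29% for TCF1. With the same weights ILCP-only regions had 36.2% and 2.61%, and ALP-only regions 45.7% and 1.21%. With windows of 2 Mb, 1 of the 3 named net gains and 1 of the 3 named net losses lay inside a named window. The cause of these shifts was not tested.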

Other observations

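Peaks on the mitochondrial chromosome, which entered no comparison, numbered 8 in ALP and 10 in ILCP, with heights of 152 to 200 tags in ALP and 137 to 198 in ILCP. With at most 1 tag kept per position and strand and fragments of 100 bp, 200 tags is the highest pileup that can be counted. On the chromosomes used, the highest peaks reached 179 tags in ALP and 181 in ILCP, and 11 peaks of each list had 100 tags or more. The Y chromosome held 42 ALP and 47 ILCP peaks.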
